A study of Mus musculus with 36 samples.

Results

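The enzymes of the glycolytic chain were followed in tumours of the Lewis lung carcinoma (LLC), a mouse lung cancer line that is grown as a transplant in mice. They are 10 genes, named by symbol: Hk2, Gpi1, Pfkp, Pfkl, Aldoa, Tpi1, Pgk1, Pgam1, Eno1 and Ldha. They were matched by symbol to the probe annotation of the array, which gave 15 probes for 7 of the 10 genes. Hk2 (hexokinase 2), Gpi1 (glucose-6-phosphate isomerase) and Eno1 (enolase 1) had no probe under that name, Entrez number or accession in the annotation used and were not analysed here. The array covered 19057 named genes in all, of which 10907 were detected on enough tumours to be tested.

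Illumina Mouse WG-6 bead arrays were hybridised with RNA from 30 LLC tumours of male mice. The groups were 5 tumours from middle-aged mice that had received 5 exposures of 0.2 Gy of iron ions (56Fe, a heavy ion of space radiation), 7 from middle-aged mice given no radiation, 8 from young mice given the same exposures, and 10 from young mice given no radiation, which was the group the study compared the others with. The study asked how the age of the host and irradiation bear on tumour progression. A further 6 arrays of LLC cells, labelled as technical controls in 2 batches of 3, served here as the line without a host; what the p4 in their label stands for is not stated. One tumour line was used throughout. Ages were given only in words, as young and as middle-aged, which the sample descriptions call old. Each description also gives the tumour a number whose meaning is not stated. Apart from that number, the labels tie no tumour to an animal, a chip or a batch. The p-values therefore reflect only how far these samples differ among themselves.

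Glycolysis splits glucose into pyruvate through a chain of soluble enzymes and yields ATP without oxygen. Lactate dehydrogenase then turns pyruvate into lactate, which renews the cofactor that the chain needs. Many tumours run this route fast even where oxygen is present, and when oxygen is short the factor HIF-1 raises transcription of most genes of the route through sites that hold ACGTG or GCGTG.

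Promoters are shown for 3 genes: Tpi1 and Ldha, whose levels had the highest Pearson correlation over all 30 tumours, and Pgk1, whose level followed theirs least. Both of these ranks rest on the 2 brightest arrays. Each sequence runs 5′ to 3′ from 250 bases before to 50 bases after a transcription start, from RefSeq on GRCm38.p6, with each ACGTG, each GCGTG and the reverse complement of both motifs in capitals. The Tpi1 window lies at chr6:124814109-124814408 on the minus strand, the Pgk1 window at chrX:106186850-106187149 on the plus strand, and the windows of the Ldha starts 1 and 2 at chr7:46845554-46845853 and chr7:46846832-46847131 on the plus strand.
Tpi1: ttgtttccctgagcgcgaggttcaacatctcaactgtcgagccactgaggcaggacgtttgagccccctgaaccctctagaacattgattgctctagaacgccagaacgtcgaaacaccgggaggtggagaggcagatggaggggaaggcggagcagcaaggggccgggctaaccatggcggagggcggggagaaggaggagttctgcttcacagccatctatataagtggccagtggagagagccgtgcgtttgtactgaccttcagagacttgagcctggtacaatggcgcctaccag
Pgk1: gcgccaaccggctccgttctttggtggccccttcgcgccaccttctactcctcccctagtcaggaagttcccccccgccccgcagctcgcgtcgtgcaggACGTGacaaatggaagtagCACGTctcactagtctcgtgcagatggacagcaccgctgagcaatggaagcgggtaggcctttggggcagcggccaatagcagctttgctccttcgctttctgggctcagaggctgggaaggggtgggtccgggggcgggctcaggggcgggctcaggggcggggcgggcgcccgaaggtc
Ldha start 1: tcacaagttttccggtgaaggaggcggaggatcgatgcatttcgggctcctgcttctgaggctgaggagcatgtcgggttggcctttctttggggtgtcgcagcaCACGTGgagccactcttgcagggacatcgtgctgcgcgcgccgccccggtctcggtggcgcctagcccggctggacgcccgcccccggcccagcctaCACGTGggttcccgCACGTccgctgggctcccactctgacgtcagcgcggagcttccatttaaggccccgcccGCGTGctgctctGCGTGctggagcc
Ldha start 2: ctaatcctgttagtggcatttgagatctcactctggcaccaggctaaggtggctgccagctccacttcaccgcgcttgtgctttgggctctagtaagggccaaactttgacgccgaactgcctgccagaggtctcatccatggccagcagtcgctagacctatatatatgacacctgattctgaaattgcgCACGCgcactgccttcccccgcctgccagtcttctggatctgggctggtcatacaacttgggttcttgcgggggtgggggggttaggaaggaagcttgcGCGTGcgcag
The Tpi1 window holds neither motif on either strand. The Pgk1 window holds ACGTG at 2 places. The window of Ldha start 1 holds ACGTG at 5 places and GCGTG at 2, where the 2 palindromes CACGTG are each counted on both strands, and start 2 holds GCGTG at 2 places. RefSeq lists 15 promoter windows for the 10 genes, and 6 of them hold ACGTG on either strand, against 19.6% of 32851 mouse windows of the same length. ACGTG or GCGTG occurs in 12 of the 15, against 43.8% of all windows. These 15 windows are not independent, since the starts of 1 gene can lie close together and share bases. The letters were matched in these windows only, and the arrays hold no measure of binding.

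All 7 measured genes were detected on 30 of 30 tumour arrays and on 6 of 6 cell arrays. Values are log2 intensities after background correction and quantile normalization across the 36 arrays, and the brightest probe stands for its gene, so levels of different genes are not set against each other. The number of detected probes was 17329 to 19843 on 28 tumour arrays, and 11860 and 14828 on young irradiated replicates 6 and 8. The upper quartile of the deposited intensity was 91.6 and 102 on these 2 dim arrays, and it was highest, at 1123, on young irradiated replicate 2. Next came replicate 1 of the middle-aged unirradiated tumours, at 863.

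Young irradiated replicate 2 stood apart in these enzymes. Its normalized level was the lowest of its group for Pfkp, Pfkl, Aldoa, Tpi1, Pgam1 and Ldha and the highest for Pgk1. Its deposited intensity, before any normalization, was the highest of its group for Tpi1 (18251) and Ldha (18325). Middle-aged unirradiated replicate 1, the next brightest, likewise had the highest Pgk1 (13.19) and the lowest Ldha (13.41) of its group. Each difference between groups was therefore also computed without young irradiated replicate 2, and each correlation without the brightest pair. How far array brightness accounts for their normalized levels was not tested.

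Transcripts of skeletal muscle were uneven between tumours. The mean level of 15 muscle genes, which include the contractile protein genes Acta1 and Myh4, lay between 8.43 and 11.2 in middle-aged irradiated replicates 1 and 4, young irradiated replicate 1 and young unirradiated replicates 3, 7 and 8. It was at most 7.25 in every other tumour and between 5.36 and 5.52 in the cells. Muscle is rich in glycolytic enzymes. Over the 30 tumours, as deviations from group means, the r of the 7 enzymes with the muscle level ran from -0.33 for Pgk1 to 0.02 for Aldoa. The lowest adjusted permutation p of r was 0.506. Within groups r ran from -0.77 for Pgk1 in young unirradiated to 0.61 for Pfkp in young irradiated tumours. The tumours with much muscle form a separate cluster, which limits what such an r can show. How far muscle contributes to the results was not tested.

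The tumours were first set against the LLC cells. Of the 7 enzymes, 0 passed the test, and 0 had an unadjusted p under 0.05, where 20.7% of the 11105 genes tested passed (limma, Benjamini-Hochberg adjusted p under 0.05). The differences ran from -0.37 for Ldha to 0.38 for Pfkp on the log2 scale. Their median was -0.07, and the median over all genes tested was also -0.07. With the 6 cell arrays averaged to 1 sample, the 95% interval of the fold was 0.539 to 1.11 for Ldha, 0.577 to 1.26 for Pgam1, 0.662 to 1.28 for Tpi1, 0.845 to 1.91 for Aldoa and 0.761 to 2.24 for Pfkp.

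Phosphofructokinase commits glucose to the chain, and 2 of its subunits were measured. Pfkp, the platelet-type subunit, had 9.53, 10.45, 10.21, 10.33 and 10.27 in the middle-aged irradiated tumours. Its lowest, median and highest values were 9.60, 10.51 and 10.83 in middle-aged unirradiated, 9.72, 10.25 and 10.78 in young irradiated and 9.44, 10.39 and 10.97 in young unirradiated tumours. The cells had 9.61, 10.04 and 10.03 in batch 1 and 9.62, 9.92 and 10.15 in batch 2. The ranges overlap, although 25 of 30 tumours lay above the median cell array, and the difference was 0.38 (SE 0.38, adjusted p = 0.53). Pfkl, the liver-type subunit, ranged from 11.35 to 12.78 in tumours and from 11.87 to 12.19 in cells, a difference of 0.08 (SE 0.29, adjusted p = 0.882).

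Aldoa, the aldolase that cleaves the 6-carbon sugar, was above the median of the cells in most tumours. It had 12.63, 12.58, 12.50, 12.92 and 12.58 in the middle-aged irradiated tumours. The lowest, median and highest values were 12.04, 12.45 and 12.79 in middle-aged unirradiated, 11.59, 12.60 and 12.85 in young irradiated and 12.23, 12.58 and 12.95 in young unirradiated tumours. The cells had 12.18, 11.87 and 12.21 in batch 1 and 12.25, 12.37 and 12.25 in batch 2. In 27 of 30 tumours the level lay above the median cell array, the ranges overlap, and the difference of 0.34 (SE 0.29) gave an adjusted p of 0.442.

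Tpi1, triosephosphate isomerase, interconverts the products of aldolase. Its level was 13.71, 13.82, 13.64, 13.84 and 13.75 in the middle-aged irradiated tumours, the narrowest spread of the 4 tumour groups. The lowest, median and highest values were 13.36, 13.55 and 13.89 in middle-aged unirradiated, 12.80, 13.79 and 13.90 in young irradiated and 13.61, 13.70 and 13.97 in young unirradiated tumours. The cells had 14.16, 13.81 and 13.71 in batch 1 and 13.71, 13.70 and 13.77 in batch 2. Tumours and cells overlap, with a difference of -0.12 (SE 0.23, adjusted p = 0.764).

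Pgk1, phosphoglycerate kinase, carries out the first ATP-forming step. It had 12.58, 12.94, 12.81, 13.05 and 12.69 in the middle-aged irradiated tumours. The lowest, median and highest values were 12.36, 12.88 and 13.19 in middle-aged unirradiated, 12.44, 12.91 and 13.25 in young irradiated and 12.08, 12.82 and 13.15 in young unirradiated tumours. The cells had 12.97, 12.69 and 13.02 in batch 1 and 12.96, 12.85 and 12.82 in batch 2, inside the range of the tumours, and the difference was -0.07 (SE 0.27, adjusted p = 0.897). Pgam1, the phosphoglycerate mutase of most tissues, ranged from 10.67 to 11.90 in tumours and from 11.34 to 11.79 in cells, and only 4 of 30 tumours lay above the median cell array (difference -0.23, SE 0.28, adjusted p = 0.604).

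Ldha, the lactate dehydrogenase subunit that favours lactate formation, had the most one-sided values. It had 13.84, 14.01, 13.96, 14.02 and 13.83 in the middle-aged irradiated tumours. The lowest, median and highest values were 13.41, 13.79 and 13.95 in middle-aged unirradiated, 12.83, 13.93 and 14.07 in young irradiated and 13.72, 13.86 and 14.22 in young unirradiated tumours. The cells had 14.22, 14.31 and 13.98 in batch 1 and 14.28, 14.37 and 13.99 in batch 2. None of the 30 tumours (0) lay above the median cell array of 14.25, but the ranges overlap, and the difference of -0.37 (SE 0.25) gave an adjusted p of 0.330, the lowest of the 7.

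**Figure D1:**
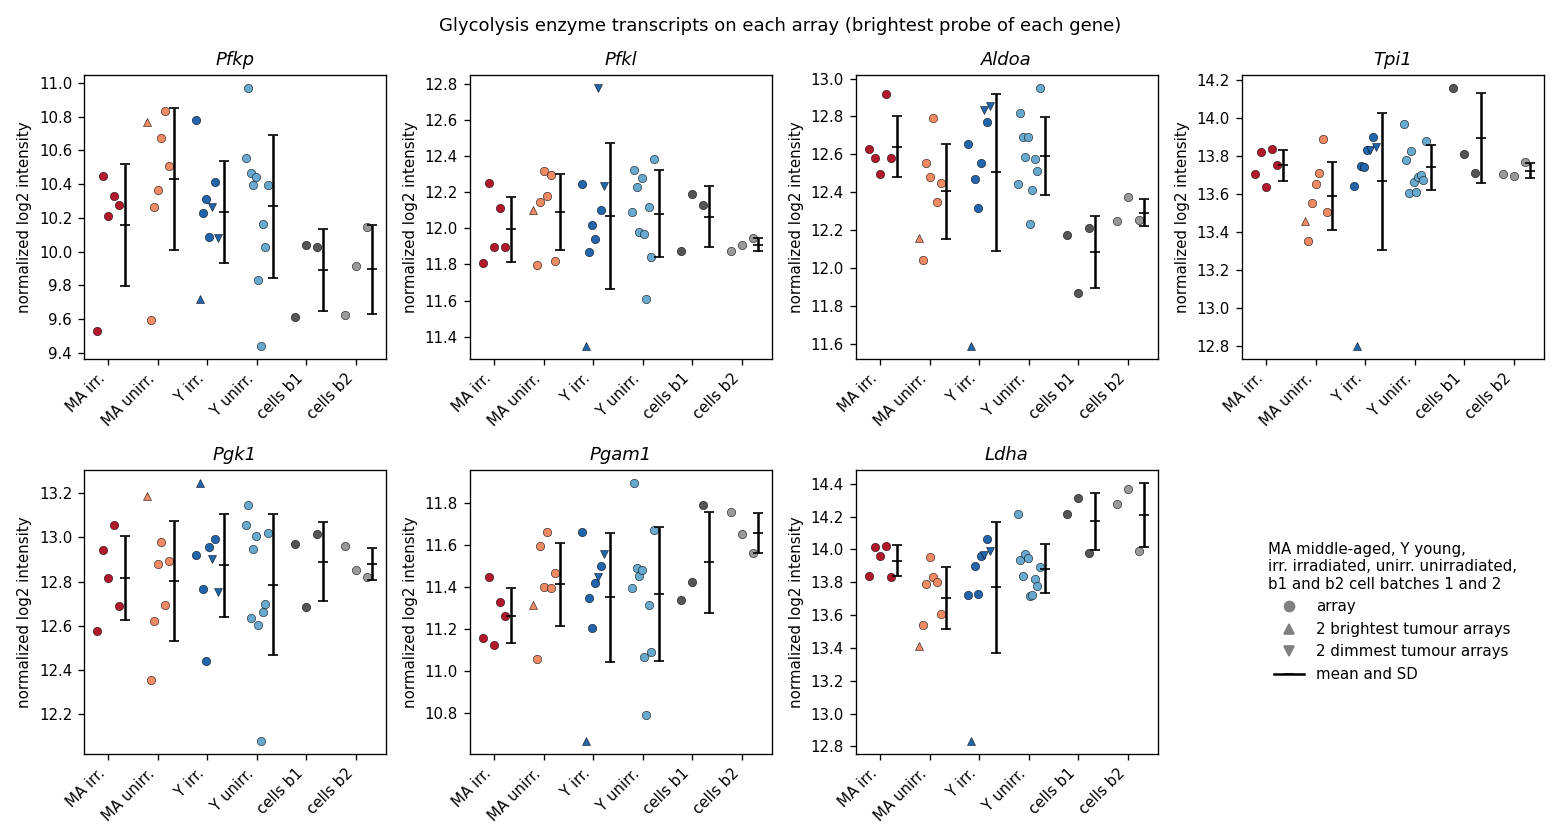
Normalized log2 intensity of each of the 7 measured enzymes on every array, by group, with 1 point per array and a bar for mean and SD; triangles mark the 2 brightest and the 2 dimmest tumour arrays. The tumour groups overlap in every panel, the bright young irradiated array is the lowest of its group except for Pgk1, and the cells lie toward the top of the panel for Ldha (13.98 to 14.37).

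The tumour samples hold other cells beside LLC cells. The mean level of 10 macrophage genes, among them Csf1r and C1qa, was 10.1 to 11.6 in tumours and 5.15 to 5.33 in cells. That of 8 fibroblast genes was 9.77 to 11.9 in tumours and 6.60 to 6.91 in cells. Their part in the differences was not tested. In such mixed samples, fewer cells of a type and less RNA per cell cannot be told apart.

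Most genes in a list of other glycolysis enzymes were not called between tumours and cells either. The list also holds Pgm1 and Bpgm, which act beside the chain. Of 13 other enzymes tested (20 listed), 2 were higher, 0 lower and 11 did not pass, against 11.7% of all genes higher and 9.03% lower. Hk3, the hexokinase found in white blood cells, was at least 4.26-fold higher, since it was detected on 29 of 30 tumours and 0 of 6 cell arrays (adjusted p = 0.000205). Pgm1, a phosphoglucomutase, was higher by 0.80 (SE 0.21, adjusted p = 0.00594). The list's median was 0.01. Gapdh and Pkm, which act directly before Pgk1 and directly before lactate formation, differed by -0.04 (SE 0.28) and 0.01 (SE 0.20) and were not called. Pfkm, the muscle-type subunit of phosphofructokinase, differed by 0.16 (SE 0.32) and was not called either.

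Among genes of glucose entry and regulators of the chain, 4 were higher in tumours. Of 7 transporters tested (10 listed), 2 were higher and 0 lower, against 11.7% of all genes higher and 9.03% lower. Slc2a1, the widespread glucose transporter GLUT1, averaged 12.94 in tumours and 11.66 in cells, a rise of 1.28 (SE 0.38, adjusted p = 0.0151). Slc2a6, a sugar transporter of white blood cells, was at least 5.68-fold higher (adjusted p = 9.3e-07) and was detected on 0 of 6 cell arrays. The lactate exporter gene Slc16a3 differed by 0.39 (SE 0.44) and did not pass. Among 10 regulators and side enzymes (18 listed), 2 were higher and 0 lower, against the same shares of all genes. Txnip, which restrains glucose uptake, was higher by 2.99 (SE 0.32). Pfkfb4, which sets the level of an activator of phosphofructokinase, was higher by 0.68 (SE 0.24, adjusted p = 0.042).

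Genes of the hypoxia response outside glycolysis were higher in tumours in part. Of 14 tested (19 listed), 6 were higher, 0 lower and 8 did not pass, against 11.7% of all genes higher and 9.03% lower. All 14 differences lay above 0, with a median of 1.01. Ndrg1, a stress gene that low oxygen induces, was higher by 2.59 (SE 0.54), and Plod2, a collagen lysyl hydroxylase, by 1.97 (SE 0.26). Ankrd37 was higher by 2.24 (SE 0.55) and Kdm3a, a histone demethylase, by 0.89 (SE 0.26). The others were Egln3, a sensor of oxygen that acts on HIF, higher by 1.14 (SE 0.36), and Car9, a carbonic anhydrase, at least 3.85-fold higher with detection on 0 of 6 cell arrays. Of 14 pyruvate and citrate cycle enzymes (17 listed), 0 were higher and 4 were lower, against the same shares of all genes, with a median of -0.59. Fh1 (fumarase) differed by -0.98 (SE 0.26), Suclg1 (a subunit of succinyl-CoA ligase) by -0.69 (SE 0.19), Cs (citrate synthase) by -0.58 (SE 0.16) and Dlat (a subunit of pyruvate dehydrogenase) by -0.72 (SE 0.25). Of 7 transcription factors of glycolytic genes, including Hif1a and Myc, 0 passed and 0 had an unadjusted p under 0.05, where 20.7% of all genes passed.

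These list counts depend on the scaling between arrays. With median scaling in place of quantile normalization, the median over all genes moved to -0.25 and that of the 7 enzymes to -0.62, and the hypoxia and citrate cycle lists had 0 genes called each, although Hk3, Slc2a6 and Txnip still passed. Slc2a1 then differed by 0.72 (adjusted p = 0.518), Pgm1 by 0.14 (adjusted p = 0.940) and Pfkfb4 by 0.38 (adjusted p = 0.841), all in limma. With the authors' normalized values 4 hypoxia genes were higher and 3 citrate cycle genes lower. The fitted log2 differences there were 1.16 for Hk3, 1.39 for Slc2a6 and 1.06 for Car9, which as folds lie below the bounds given above. Slc2a1 (1.33, adjusted p = 0.158), Pgm1 (0.76, adjusted p = 0.129), Egln3 (1.15, adjusted p = 0.0526), Car9 (adjusted p = 0.238) and Dlat (-0.32, adjusted p = 0.192) did not pass there. The call of Car9 was also lost with no background correction (adjusted p = 0.126), the mean of detected probes (0.177) and no filter on detection (0.0544). Without that filter Pfkfb4 (adjusted p = 0.0592) and Dlat (0.0543) did not pass either, nor did Pgm1 with the mean of detected probes (0.0594). With young irradiated tumours alone, 3 hypoxia genes were higher and 0 citrate cycle genes lower. The tests of these lists against the 7 enzymes were not made, so no difference between lists is claimed.

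**Figure D2:**
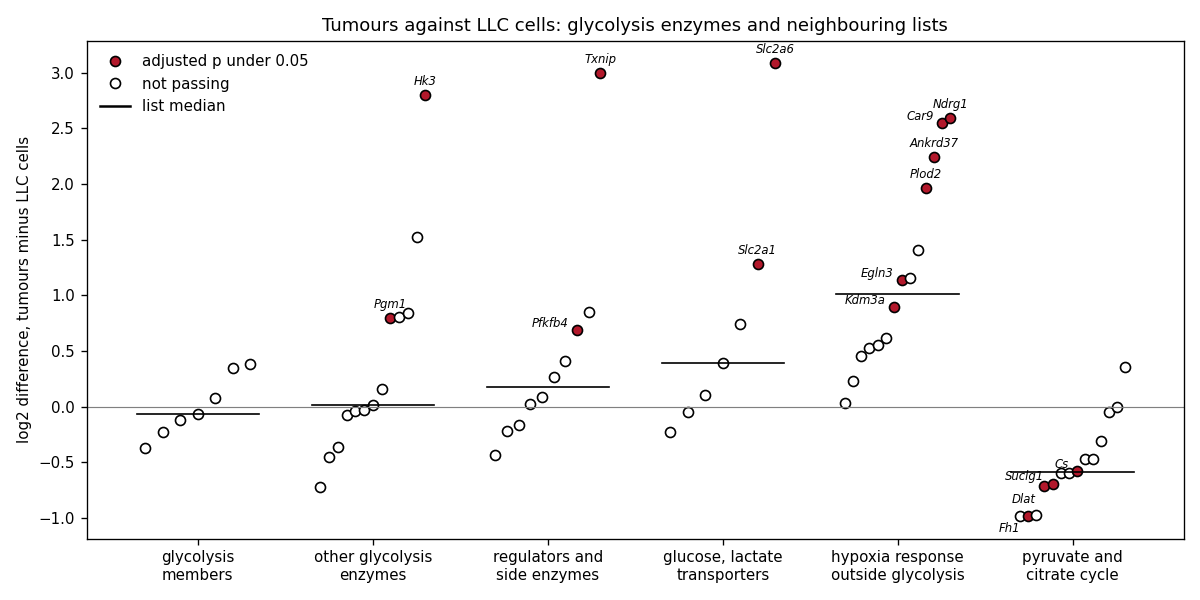
Log2 difference, tumours minus LLC cells, for each tested gene of the glycolysis enzymes and of 5 neighbouring lists; filled points passed at an adjusted p under 0.05 and bars show list medians, with fitted differences plotted for Hk3, Slc2a6 and Car9, which had no cell array with a detected signal. The 7 enzymes lie between -0.37 and 0.38 around a median of -0.07, whereas the hypoxia genes have a median of 1.01 and the citrate cycle genes one of -0.59.

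Host age was compared next. Between middle-aged and young unirradiated mice, 0 of the 7 enzymes passed and 0 had an unadjusted p under 0.05, where 0% of 10907 genes passed and 1501 had an unadjusted p under 0.05. Aldoa averaged 12.40 ± 0.25 in middle-aged (SD, n = 7) and 12.59 ± 0.21 in young tumours (SD, n = 10), a difference of -0.19 (SE 0.14). Ldha averaged 13.71 ± 0.19 in middle-aged and 13.88 ± 0.15 in young tumours (difference -0.18, SE 0.12, limma adjusted p = 0.532), and Tpi1 13.59 ± 0.18 in middle-aged and 13.74 ± 0.12 in young tumours (difference -0.15, SE 0.11). Ldha lay above the median of the young group in 1 of 7 middle-aged tumours, and so did Aldoa. The bright array of the middle-aged group, replicate 1, had its lowest Ldha (13.41). With each sample left out in turn, the difference was -0.22 to -0.13 for Ldha, -0.25 to -0.13 for Aldoa and -0.20 to -0.11 for Tpi1. Pfkp differed by 0.16 (SE 0.19), and Pfkl, Pgk1 and Pgam1 by between 0.01 and 0.05. All 7 intervals together reach from -0.47 to 0.54.

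Between middle-aged and young irradiated mice, 0 of the 7 passed and 0 had an unadjusted p under 0.05, where 0.00917% of genes passed, which is the gene Nbas alone. The differences ran from -0.09 for Pgam1 to 0.16 for Ldha. The sign for Ldha, Aldoa and Tpi1 was positive here and negative in the unirradiated mice. Without young irradiated replicate 2 the difference was 0.03 for Ldha, 0.0035 for Aldoa and -0.04 for Tpi1, whose sign rests on that array. The ranges of the 2 groups overlap for every enzyme.

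Irradiation was compared within each age. In young mice 0 of the 7 passed and 0 had an unadjusted p under 0.05, where 0% of 10907 genes passed and 604 had an unadjusted p under 0.05. The differences, irradiated minus unirradiated, ran from -0.11 for Ldha to 0.09 for Pgk1, and the intervals from -0.40 to 0.35. Without young irradiated replicate 2 the Ldha, Aldoa and Tpi1 differences were 0.02, 0.04 and 0.05.

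In middle-aged mice 0 of the 7 passed and 0 had an unadjusted p under 0.05, where 0% of 10907 genes passed and 690 had an unadjusted p under 0.05. Ldha averaged 13.93 ± 0.09 in irradiated (SD, n = 5) and 13.71 ± 0.19 in unirradiated tumours (SD, n = 7), and all 5 irradiated values lay above the median of 13.79 (difference 0.23, SE 0.15, limma adjusted p = 0.865). Aldoa and Tpi1 likewise had 5 of 5 irradiated tumours above the unirradiated median, with differences of 0.24 (SE 0.17) and 0.16 (SE 0.13). Pfkp went the other way, with 0 of 5 irradiated tumours above the unirradiated median and a difference of -0.27 (SE 0.22). The second brightest array, middle-aged unirradiated replicate 1, had the lowest Ldha of its group (13.41). With each sample left out in turn, the difference was 0.18 to 0.27 for Ldha, 0.17 to 0.30 for Aldoa and 0.12 to 0.21 for Tpi1. In the same comparison all 15 skeletal muscle genes lay above 0 (median 1.03), as did all 8 neutrophil genes (median 0.31). So did 6 of 10 endothelial, 4 of 10 macrophage, 4 of 8 fibroblast, 1 of 5 red blood cell and 1 of 3 T and NK cell genes. The part of these cell types in the result was not tested. None of the differences of the enzymes exceeded the spread between tumours by the test, and the intervals reach from -0.72 to 0.57.

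Both factors were combined in the comparison of middle-aged irradiated with young unirradiated mice. Of the 7 enzymes 0 passed and 0 had an unadjusted p under 0.05, where 0.0183% of genes passed (Hmgn5 and Nbas). The differences ran from -0.11 for Pfkp to 0.05 for Ldha, the narrowest span of the tumour comparisons. This comparison and those above share tumours. The difference between the irradiation effects, middle-aged minus young, was 0.34 for Ldha (SE 0.19, adjusted p = 0.981), 0.32 for Aldoa (SE 0.21) and 0.23 for Tpi1 (SE 0.17). Of the 7 enzymes 0 passed and 0 had an unadjusted p under 0.05, where 0% of genes passed and 482 had an unadjusted p under 0.05. Without young irradiated replicate 2 these differences were 0.21, 0.19 and 0.11 for Ldha, Aldoa and Tpi1.

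**Figure D3:**
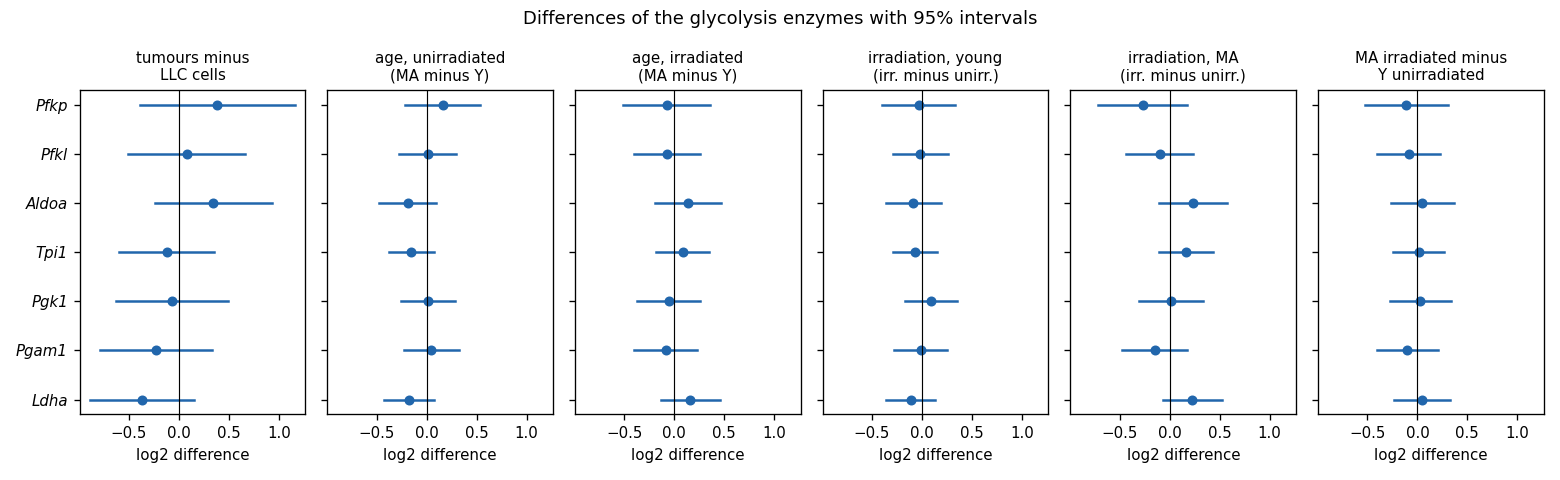
Log2 difference of each measured enzyme with its 95% interval in 6 comparisons, 1 panel each on a common axis; MA is middle-aged, Y young. Every interval crosses 0, and those of the tumour comparisons lie between -0.72 and 0.57, whereas those against the cells reach from -0.89 to 1.16.

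Neighbouring lists were not called across tumour groups either. In the 6 comparisons among tumours, 0 genes of the other glycolysis enzymes, regulators, transporters, hypoxia genes, citrate cycle enzymes or transcription factors passed, and between 0 and 6 genes of a list had an unadjusted p under 0.05 in a comparison. Bpgm, which makes the red cell metabolite 2,3-bisphosphoglycerate, had the smallest p among the other glycolysis enzymes with age in unirradiated mice (difference 0.50, SE 0.15, adjusted p = 0.186). In that comparison 2 of 14 hypoxia genes lay above 0, with a median of -0.25, and 6 of the 14 had an unadjusted p under 0.05, the lowest adjusted p being 0.163. Marker genes of some other cell types fell in the same comparison, none of them called: 9 of 10 endothelial genes lay below 0 (median -0.36, 6 with an unadjusted p under 0.05), as did 8 of 8 neutrophil genes (median -0.62), 5 of 5 red blood cell genes (median -0.92) and 15 of 15 skeletal muscle genes (median -1.39). The 1 adipocyte gene tested also lay below 0. By contrast 7 of 10 macrophage genes (median 0.24) and 2 of 3 T and NK cell genes (median 0.31) lay above 0, and fibroblast genes split 4 and 4. Their part in the result was not tested.

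Within groups the enzymes varied from tumour to tumour. The SD within groups was 0.39 for Pfkp, 0.28 for Pfkl, 0.28 for Aldoa, 0.22 for Tpi1, 0.27 for Pgk1, 0.27 for Pgam1 and 0.24 for Ldha, against a median of 0.32 over all genes tested. Pfkp was thus the most variable, above 65.3% of tested genes, and Tpi1 the least, above 21.5%. Whether the enzymes varied together was tested on deviations from the group means over the 30 tumours, with two-sided permutation p-values from 1e+05 resamples.

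In 20 of the 21 pairs of enzymes the correlation was positive, with a median r of 0.63, against 0.01 over all pairs of tested genes. By Pearson's r 17 pairs had an adjusted p under 0.05 over the 21 pairs, and by Spearman's rho 13. Tpi1 and Ldha were closest, with r = 0.91 and rho = 0.83, permutation p = 1e-05 for each, which is the smallest these resamples can give, and adjusted p-values of 3.5e-05 and 7e-05. Without the 2 tumours farthest from the median of Tpi1, r was 0.83, and without the 2 brightest arrays it was 0.74. The pair was then no longer the closest, since Pgk1 and Pgam1 had the highest r, at 0.80. Within groups r was 0.70 in middle-aged unirradiated, 0.99 in young irradiated and 0.80 in young unirradiated tumours, and the middle-aged irradiated group was too small for a value. Aldoa and Pgam1 followed with r = 0.83 and rho = 0.84 (adjusted permutation p-values 3.5e-05 and 7e-05), or 0.76 without the brightest arrays.

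Over all 30 tumours Pgk1 followed the others least. Its r with the other 6 enzymes ran from -0.04 with Tpi1 to 0.62 with Pfkp, with a median of 0.21, and 2 of its 6 pairs were called by r, while all 15 pairs without Pgk1 were, with a median r of 0.66. For Tpi1 and Pgk1, rho was 0.20 (permutation p = 0.277, adjusted 0.277), and r was 0.16 in middle-aged unirradiated, -0.59 in young irradiated and 0.56 in young unirradiated tumours. Without the 2 brightest arrays the r of Pgk1 with the others was 0.49 to 0.80, with a median of 0.64, that of the 15 pairs without Pgk1 was 0.38 to 0.80, with a median of 0.48, and r was then positive in all 21 pairs. The low correlation of Pgk1 thus rests on those arrays. Young irradiated replicate 2 has the highest Pgk1 and the lowest Tpi1 and Ldha of its group, and middle-aged unirradiated replicate 1 the highest Pgk1 and the lowest Ldha.

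Each enzyme was also set against the mean of the 14 hypoxia genes outside glycolysis. Over the 30 tumours r was 0.61 for Pfkp, 0.59 for Pfkl, 0.57 for Tpi1, 0.56 for Pgam1, 0.52 for Pgk1, 0.50 for Aldoa and 0.45 for Ldha. Spearman's rho ran from 0.44 for Aldoa to 0.64 for Tpi1. All 7 had adjusted permutation p-values, over the 7 tests, of 0.00108 to 0.00766 for r and 0.00105 to 0.0166 for rho. Among the other 10886 tested genes the median r was -0.05, and 6.45% had an r at or above the 0.45 of Ldha.

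The correlations stayed above 0 without the tumours that stand apart. Without the 2 tumours farthest from the median of the hypoxia level, r was 0.40 to 0.59, and without the 2 brightest arrays 0.53 to 0.74. In the 3 groups of at least 6 tumours every r was above 0, from 0.07 for Aldoa in middle-aged unirradiated to 0.84 for Pfkp in the same group. There rho was below 0 for Aldoa (-0.14) and Pgam1 (-0.18). Pfkl was also inversely related to the number of probes detected on an array (r = -0.56, adjusted permutation p = 0.0237 over 7 tests), but rho was -0.33 (adjusted p = 0.507) and r was -0.12 without the 2 dimmest arrays. For the other 6 enzymes the relation with detected probes had adjusted p-values of at least 0.295.

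**Figure D4:**
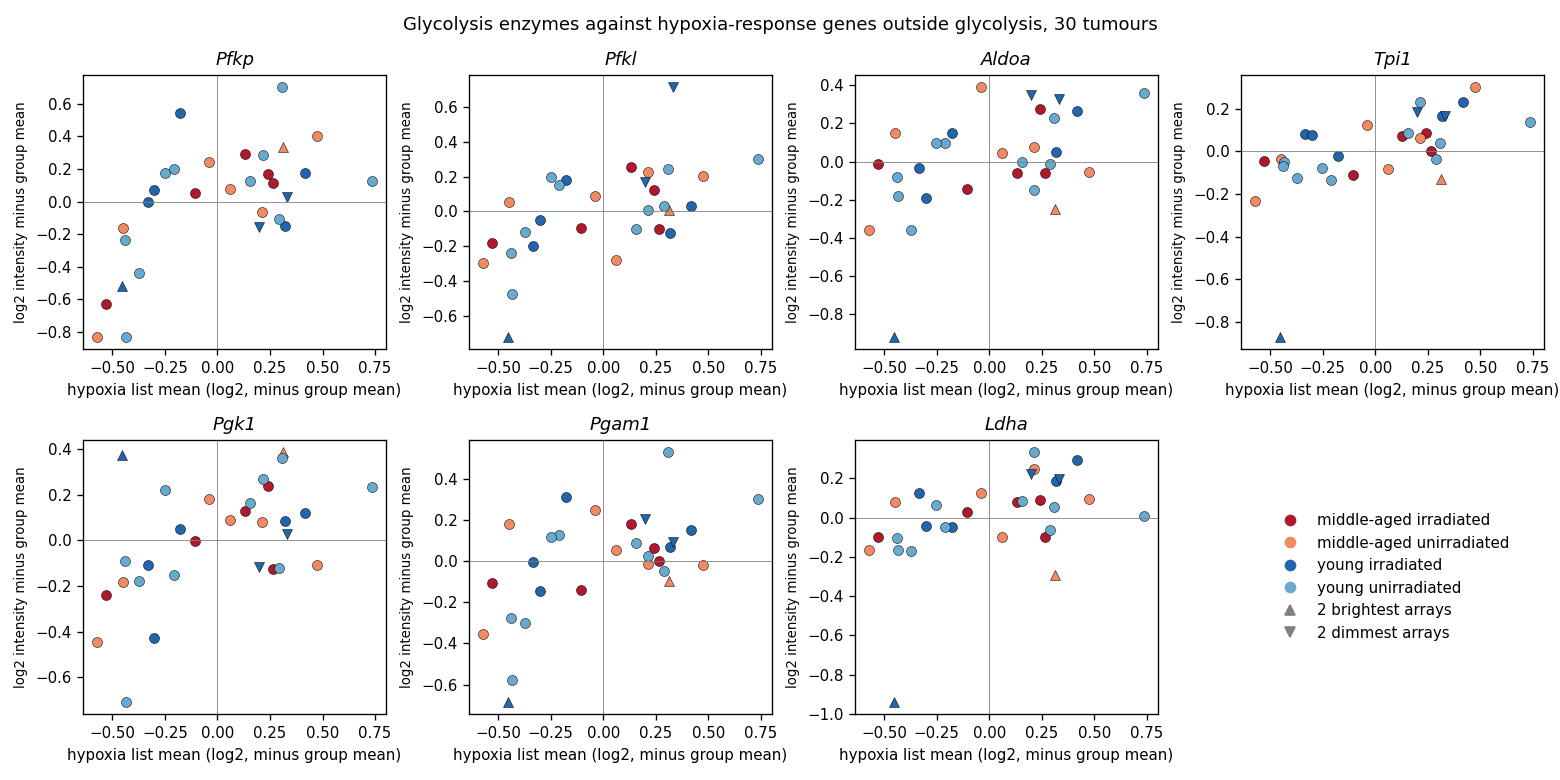
Each of the 7 enzymes (vertical axis, log2 intensity minus the group mean) against the mean of 14 hypoxia genes outside glycolysis (horizontal axis, same scale) in 30 tumours; colours mark the groups and triangles the 2 brightest and 2 dimmest arrays. Points rise from left to right in every panel (r from 0.45 for Ldha to 0.61 for Pfkp), and the bright young irradiated array lies far below the others for Aldoa, Tpi1 and Ldha.

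Over the same 30 tumours, the 8 genes outside the 7 with the highest mean r with them were Lonp1 (a mitochondrial protease, mean r 0.59), Ddit3 (a stress transcription factor, 0.59), Zpr1 (a zinc finger protein, 0.58), Abcc1 (an efflux transporter, 0.57), Ndrg1 (0.57), Rgs11 (a regulator of G-protein signalling, 0.56), P4ha2 (a collagen prolyl hydroxylase subunit, 0.55) and Ndufb7 (a subunit of respiratory complex I, 0.55). They were chosen by this measure among 10900 genes, and the values are a description. Ndrg1 and P4ha2 are also among the 14 hypoxia genes. Without the 2 dimmest and 2 brightest arrays Ndrg1 ranked 2 and Abcc1 ranked 6, while Ndufb7 ranked 361 and Zpr1 131.

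Several enzymes had more than 1 probe, and these did not always give the same answer. Tested separately, in an alternative added after the data were seen, 2 of 13 probes of these enzymes were called between tumours and cells, against 19.6% of 18147 probes. A dim probe of Tpi1 averaged 7.08 in tumours and 8.39 in cells, a difference of -1.31 (SE 0.43, adjusted p = 0.0284), while the other 2 Tpi1 probes differed by -0.12 and 0.15. A dim probe of Pgk1 averaged 5.22 in tumours and 6.22 in cells (difference -0.998, SE 0.30, adjusted p = 0.0166), but it was detected on 2 of 30 tumours and 5 of 6 cell arrays, near background. Over the tumours the dim Tpi1 probe correlated with the brightest one at r = -0.18, and the third Tpi1 probe at 0.72. The second Pfkl probe correlated with the brightest at -0.39, that of Pfkp at 0.68 and that of Pgam1 at 0.45. The second Pgam1 probe, detected on 30 of 30 tumours, also differed from the brightest one in the comparisons of age. It averaged 7.46 ± 0.45 in middle-aged irradiated (SD, n = 5) and 8.22 ± 0.34 in young irradiated tumours (SD, n = 8), a difference of -0.76 (SE 0.27, limma unadjusted p = 0.00911, adjusted p = 0.452), against -0.09 for the brightest probe. It averaged 7.40 ± 0.34 in middle-aged unirradiated (SD, n = 7) and 7.97 ± 0.69 in young unirradiated tumours (SD, n = 10), a difference of -0.56 (SE 0.24, limma unadjusted p = 0.0241, adjusted p = 0.329), against 0.05. Both pairs of groups overlap. Of the 13 probes 0 were called in any comparison among tumours, against 0% of probes for age in irradiated and 0.0165% in unirradiated mice, and no other probe of the 13 had an unadjusted p under 0.05 among tumours. The values above therefore hold for the brightest probe of each gene, and which transcript each dim probe measures was not tested.

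**Figure D5:**
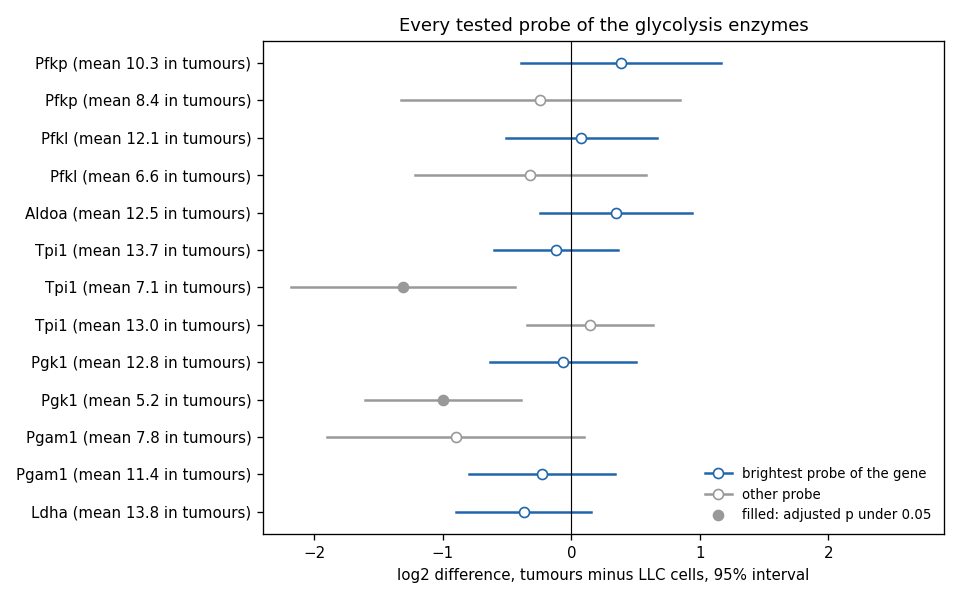
Log2 difference, tumours minus LLC cells, with its 95% interval for each of the 13 tested probes of the 7 enzymes, labelled with its mean log2 level in tumours; blue marks the brightest probe of a gene. The intervals of all 7 brightest probes cross 0, and the 2 filled points are the dim probes of Tpi1 (-1.31) and Pgk1 (-0.998). The dim Pgk1 probe met the detection filter only with the cell arrays.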

How the data were processed

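Illumina Mouse WG-6 arrays measured total RNA of 30 LLC tumours and 6 samples of LLC cells. The mean bead intensity and a detection p-value for each of 45281 probes came from GenomeStudio, per the submitters' processing notes, and were deposited unnormalized on a linear scale, per the file headers. No GenomeStudio version is given in the sources used here. The authors also deposited normalized intensity values, described in the series text as rank variant normalization after a detection filter, whose exact method and scale are not stated. Each of its 36 columns ranked best with its own array, and it was an alternative only.

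Age and treatment in the labels set the groups. Probes were named through the platform annotation (34885 with 1 symbol, 18 with several, 10378 unnamed here). Background was corrected by normexp with controls inferred from detection p-values (neqc, offset 16), and the 36 arrays were quantile normalized together. Low intensities are compressed, so differences of dim genes are understated. The brightest probe over the tumours stood for its gene. Genes detected (p under 0.05) on at least 5 of 30 tumours were tested, or on at least 5 of 36 arrays against the cells. A gene detected on no cell array has a lower bound as its fold: the tumours' mean against the higher, per array, of the lowest detected signal and its own. This bound is one of the means under this normalization and does not allow for the spread between tumours.

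The test was limma's moderated one (limma 3.58.1, R 4.3.3), with all 30 tumours in 1 fit of 4 group means and the cell arrays averaged to 1 sample that is assumed to vary like the tumours. P-values were adjusted over all tested genes, with a threshold of 0.05. The number of arrays limits the precision. The procedure was tested on simulated data. Alternatives were the authors' values, background, scaling, detection filter, probe choice, array weights, brightness as a covariate, the dim and bright arrays, single tumour groups and cell batches, each sample left out, and the replicate number as a block. The enzymes and the lists were chosen with earlier results of these data known. Named are all enzymes, up to 4 genes per list with the smallest p, and the 8 genes most like the enzymes. Hif1a, Myc, Gapdh, Pkm, Pfkm and Slc16a3 were named after their values were seen where they fall outside that rule. The called hypoxia genes Egln3 and Car9 were likewise named beyond the 4 of their list.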

Additional observations from a re-analysis of the deposited data

Results flagged for a closer look

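Of 28 combinations of an enzyme and a tumour group, 7 held a sample whose gap to the next was large against the range of the group (Dixon's test at the 95% level, which chance passes in about 1 of 20 groups). In 4 of them it was the bright array, young irradiated replicate 2, as the lowest of its group: Aldoa at 11.59, Tpi1 at 12.80, Pgam1 at 10.67 and Ldha at 12.83. The next values were 12.31, 13.64, 11.21 and 13.72. Before normalization the same array had the highest intensity of its group in Aldoa (11264), Tpi1 (18251), Pgam1 (6851) and Ldha (18325). Pfkp was lowest at 9.53 in middle-aged irradiated replicate 1, against 10.21 for the next. Pgk1 was lowest at 12.08 in young unirradiated replicate 7, against 12.61. Middle-aged irradiated replicate 1 and young unirradiated replicate 7 are among the tumours with high muscle genes (8.43 and 11.2), and the part of muscle in their values was not tested. Ldha was highest at 14.22 in young unirradiated replicate 1, against 13.97.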

How the results depend on the processing

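Across 2093 recomputations of the differences of the 7 enzymes, 0 were called. In 118 of these, for 34 of the 49 differences, the sign differed from that given, always between values that were not called. The authors' normalized values turned 15 signs and median scaling 17 of 49. Median scaling moved the median over all genes to -0.25 for tumours against cells, 0.22 for age in unirradiated and 0.66 in irradiated mice, -0.31 for irradiation of young mice and 0.11 of middle-aged mice, 0.33 for middle-aged irradiated against young unirradiated and 0.42 for the difference between the irradiation effects. The enzymes' medians were then -0.62, 0.07, 0.77, -0.46, 0.27, 0.28 and 0.73, in the same order. With each probe tested separately, 2 enzymes had a called probe against cells, and 0 in the comparisons among tumours. That of Pgk1 met the detection filter only with the cell arrays. With the authors' values the median r between enzymes was 0.81, without the 2 dimmest arrays 0.64, without the 2 brightest 0.57, and without the 2 tumours farthest from the median of the first enzyme of each pair 0.44.

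Counts over all genes changed more. Against cells, 2302 genes were called, but 368 under median scaling, 809 with young irradiated tumours alone, and 2215 to 2648 when 1 sample was left out. For age in unirradiated mice the count was 0, but 1 with the authors' values, 413 with array weights, 29 without the 2 dimmest arrays, and 0 to 123 with 1 sample left out, the highest without young unirradiated replicate 5. For age in irradiated mice it was 1, but 3 with the authors' values, 2 with no background correction or no detection filter, 6 with array weights, and 0 under median scaling, the stricter filter, the replicate block, or without the 2 dimmest arrays, with or without the 2 brightest. It was 0 to 3 with 1 sample left out, the highest without young irradiated replicate 4. For irradiation in young mice the count was 0, and 0 to 1 with 1 sample left out. For irradiation in middle-aged mice it was 0, but 227 with array weights, and 0 with 1 sample left out. For middle-aged irradiated against young unirradiated it was 2, but 1 with the authors' values, no background correction or the stricter filter, 0 under median scaling or the replicate block, 32 with array weights, 6 with the mean of a gene's probes, 8 without the 2 dimmest arrays, 4 without the 2 brightest, 8 without all of these, and 0 to 7 with 1 sample left out, the highest without middle-aged irradiated replicate 4. The cause was not tested. The arrays left out for brightness were chosen after the data were seen.

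Whether the replicate numbers of the labels pair the tumours cannot be settled from these values. Deviations of tumours with the same number correlated at a mean r of 0.04 over 37 pairs, of which 14 were over 0.1. For different numbers the mean r was -0.003 over 294 pairs, of which 82 were over 0.1. In all, 4 of 30 tumours correlated best with their own number, and the count to expect without pairing was not computed. With the replicate block 0 enzymes were called in any comparison.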
